A study of Hakea prostrata with 26 samples.

Results

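The 150 genes described here are those whose summed RNA level varied least across all leaf and root libraries of Hakea prostrata, a Proteaceae shrub of phosphorus-poor soils in south-western Australia. Each gene is the sum of the assembled transcripts that share its ID, and its level is log2(CPM + 1), where CPM is the count relative to the library total after TMM scaling, which takes most genes as unchanged between libraries. Of 25047 genes, 4575 had a mean level of at least 5 over the 26 libraries and at least 3 in every library. The 150 of these with the lowest standard deviation (SD) of the level were taken, which is 3.28% of the 4575. They are compared below with the other 4425 genes past the same level filter. The members were chosen by their summed level in every library, so steadiness itself is a description here and not a finding.

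There are 15 wild leaf libraries from field plants, 3 for each of the stages labelled 1, 2, 3, 4 and M, and 11 hydroponic libraries with 1 library per condition. The hydroponic set holds cluster roots at days 0, 1, 4, 7 and 12, white roots at 1, 10 and 50 uM phosphate (Pi), and mature leaves at 1, 10 and 50 uM Pi. The labels give no genotype, no plant age and no definition of stage M, and they record that the best 3 RNA samples of 5 plants were kept for each leaf stage. Whether hydroponic libraries pooled several plants is not stated. Library totals ran from 1517487 counts in stage 4 replicate 3 to 20283815 counts in the mature leaf at 1 uM Pi.

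Genes with steady RNA levels across organs and ages serve as internal references, since a level measured against them does not inherit their own changes. Many such genes in plants act in tasks that every cell carries out, such as protein turnover, RNA handling and membrane traffic. One gene can still produce several transcript isoforms, by alternative splicing or alternative ends, and a steady sum does not require steady isoforms. Cluster roots, which Proteaceae form under low phosphorus, grow, release organic acids and senesce within weeks, while Hakea prostrata leaves green late in their expansion. The IDs carry no gene name, so no function can be given for any gene described here, and tissue identity could not be checked against marker genes.

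The SD of the level over the 26 libraries was 0.145 to 0.247 in the steady genes with a median of 0.221, against a median of 0.597 and a highest value of 4.70 in the other genes. In 116 of the 150 steady genes the highest library was within 2-fold of the lowest, against 33 of the 4425 other genes. The median ratio of the highest to the lowest library was 1.85-fold in the steady genes and 5.06-fold in the other genes. Within 1.5-fold over all libraries there were 4 steady genes and 0 other genes. Steady genes occurred at many levels, given here per library and not per transcript length, so that levels of different genes are not compared in copy number. Their geometric mean ran from 31.5 to 409 CPM with a median of 77.9, against a median of 66.9 CPM in the other genes. Above the upper quartile of the other genes' mean level there were 36 steady genes, and below the lower quartile 30.

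**Figure D1:**
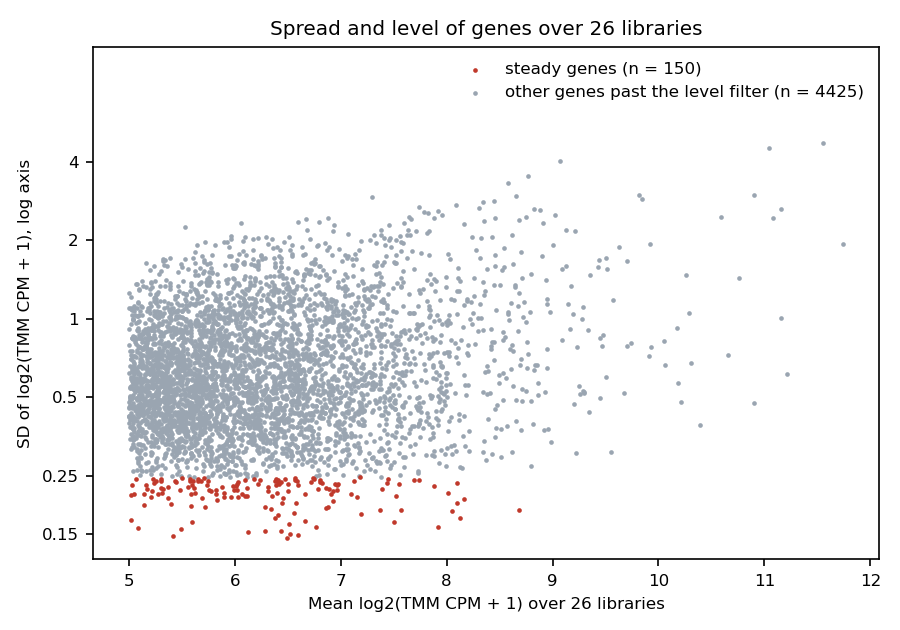
Each point is a gene past the level filter, with its mean log2(TMM CPM + 1) over 26 libraries on the horizontal axis and the SD of that level on a log vertical axis; steady genes and other genes have separate colours. The 150 steady genes lie under an SD of 0.248 across mean levels of 5.02 to 8.68.

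TRINITY_DN2542_c3_g1, with a single isoform, had the lowest SD, 0.1446. Its level was 86.9 to 103.9 CPM in the 5 cluster root libraries, 82.8 to 90.6 CPM in the white roots, 70.8 to 85.1 CPM in the hydroponic mature leaves and 68.6 to 102.1 CPM in the 15 wild leaf libraries. Its lowest value was in stage M replicate 1 and its highest in the cluster root at day 7. TRINITY_DN6918_c0_g1, with 2 isoforms and an SD of 0.1474, had 35.1 CPM in its lowest library, the white root at 1 uM Pi, and 50.8 CPM in its highest, the mature leaf at 10 uM Pi. TRINITY_DN14202_c0_g1, with 5 isoforms and an SD of 0.1489, ran from 78.9 CPM in the mature leaf at 1 uM Pi to 120.4 CPM in stage 4 replicate 3.

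The steady gene with the highest mean level was TRINITY_DN2073_c0_g1, at a geometric mean of 409 CPM. It had 574.8, 540.4 and 456.7 CPM in the 3 stage M replicates, against 330.6 CPM in the cluster root at day 12 and 331.0 CPM in the white root at 1 uM Pi. Stage M held its 2 highest values, while the other wild leaf stages lay between 388.6 and 449.6 CPM. Last inside the limit, at rank 150, TRINITY_DN826_c2_g1 had an SD of 0.2473. Its level was 104.5 to 129.0 CPM in the 8 root libraries and 141.0 to 175.4 CPM in the wild leaves, so roots and wild leaves did not overlap in this gene. Hydroponic mature leaves had 157.1, 153.5 and 126.4 CPM at 1, 10 and 50 uM Pi, the last of these inside the root range. Just outside, TRINITY_DN2682_c0_g1 had an SD of 0.2474, with 124.9 to 223.7 CPM over the libraries. The border of the set thus fell between near-equal values.

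Counting error alone would give a median SD of 0.0813 for these genes, and the observed SD was 1.29 to 5.71 times the counting value, with a median of 2.54. Counting error would account for a median of 15.5% of the variance. Depth was lowest in stage 4 replicate 3, where the median steady gene had 75 counts and the counting SD was 0.167, and the smallest count of any steady gene in any library was 29. Within wild leaf stages the pooled SD of the level between replicates had a median of 0.136 in the steady genes and 0.217 in the other genes. The SD of the 5 stage means was 0.142 in the steady genes and 0.450 in the other genes. The ratio of these 2 SDs, taken gene by gene, had a median of 1.09 in the steady genes and 2.10 in the other genes. The rule used these libraries, so the values are a description.

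How much of each library the 150 genes made up was far from steady. In wild leaves of stage 1 they held 1.81% ± 0.02 of the library (SD, n = 3, as for each later stage). Stage 2 leaves gave 1.58% ± 0.07, stage 3 leaves 1.29% ± 0.04 and stage 4 leaves 0.913% ± 0.081, and stage M leaves 0.718% ± 0.107. Cluster root libraries had 2.16% at day 0, 1.96% at day 1, 1.84% at day 4, 1.72% at day 7 and 1.55% at day 12. White roots had 1.93, 2.05 and 2.09% at 1, 10 and 50 uM Pi, and mature leaves 1.27, 1.34 and 1.41%. The share was thus higher in roots and young leaves and lower in later leaf stages. The TMM factors ran from 1.56 in the white root at 1 uM Pi to 0.439 in stage M replicate 1. The share is the summed scaled level times the TMM factor. Since the rule chose genes with a near-constant scaled level, share and factor move together by construction. After TMM scaling the summed level of the 150 genes was 12398 to 14907 CPM over the 26 libraries.

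**Figure D2:**
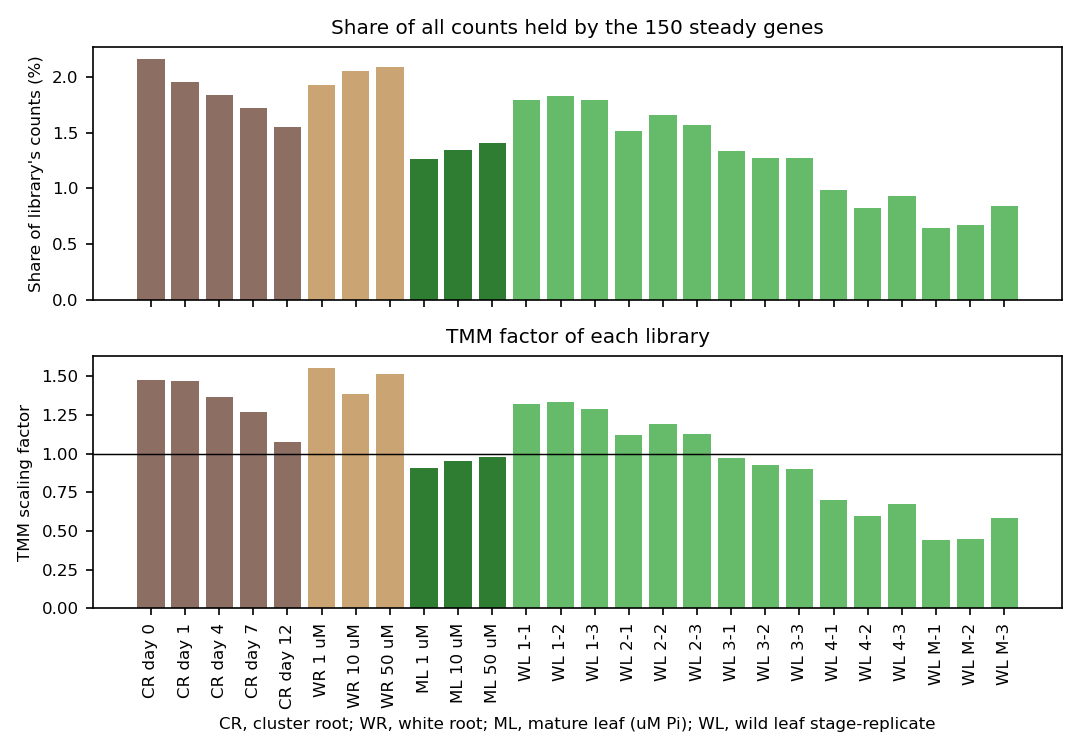
The upper bars give the percentage of each library's counts held by the 150 steady genes and the lower bars the TMM factor of the same library, with libraries in order of tissue, day, Pi supply, stage and replicate and coloured by tissue. Both fall along the wild leaf stages, the share from 1.79 to 1.83% at stage 1 to a lowest value of 0.647% at stage M, and root libraries hold 1.55 to 2.16%. Share and factor move together by construction, since the genes were chosen for a near-constant scaled level.

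Steadiness was therefore relative to the scaling. In plain CPM, divided by the library total alone, the same rule kept 0 of the 150 genes, and the median SD of the 150 was 0.545, against 0.756 in the other genes. Between stage M and stage 1 the median log2 difference of the 150 was -1.33 in plain CPM and 0.08 after TMM, against -1.17 and 0.24 in the other genes. Between white root and mature leaf the median log2 difference was 0.60 in plain CPM and -0.04 after TMM, against 0.455 and -0.183 in the other genes. With DESeq2's size factors 117 of the 150 were kept, with TMM factors computed without the 20 most abundant transcripts 121, and with TMM factors from transcript counts 90. In all of these 3 rescalings 79 genes were kept. In these bulk samples fewer cells of a type and less RNA per cell cannot be told apart.

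Libraries differed in how far the steady genes strayed from their own means. The SD of the deviations over the 150 genes ran from 0.132 in stage 2 replicate 1 to 0.307 in the mature leaf at 50 uM Pi, and the cluster root at day 12 had 0.303. In the other genes the same quantity ran from 0.478 to 1.15. The cluster root at day 12 was the highest library of 24 steady genes and the lowest of 13, and the mature leaf at 50 uM Pi the highest of 20 and the lowest of 11. In stage 2 replicate 1 no steady gene had either its highest or its lowest value. The median deviation was lowest in the white root at 1 uM Pi, at -0.15, and highest in stage M replicate 1, at 0.08. Leaving out the white root at 1 uM Pi changed membership most, with 119 of the 150 kept.

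**Figure D3:**
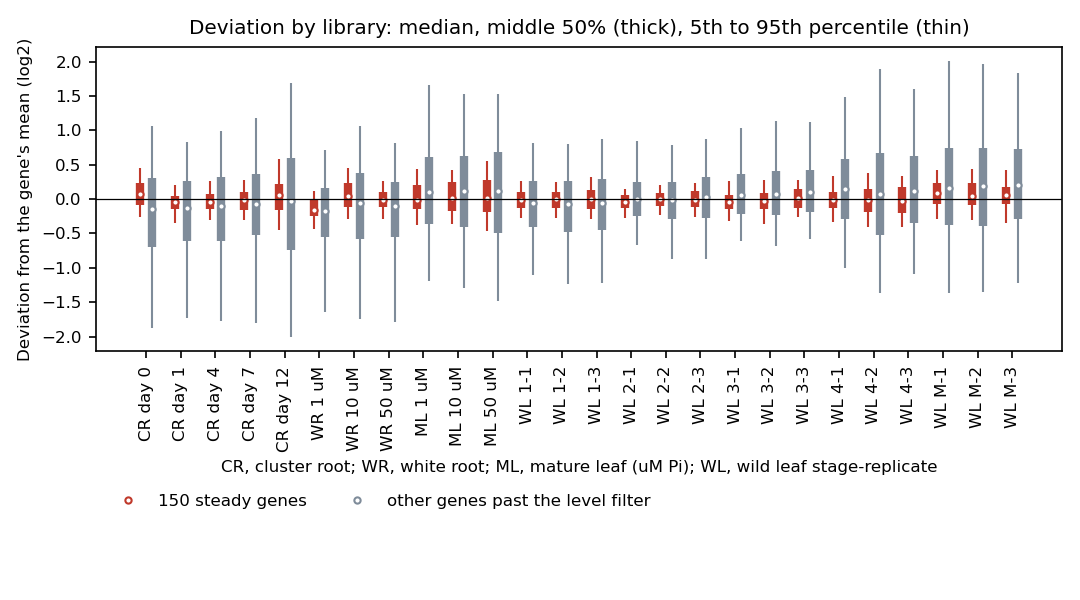
For each library, the point is the median, the thick bar the middle 50% and the thin line the 5th to 95th percentile of log2 deviations from each gene's own mean over the 26 libraries, with the 150 steady genes left of the other genes past the level filter. The spread of the steady genes is largest in the mature leaf at 50 uM Pi (SD 0.307) and the cluster root at day 12 (0.303) and smallest in stage 2 replicate 1 (0.132).

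Roots and late wild leaves lay apart in the variation that remained, described here from the same levels that the rule used. The first principal component of the steady genes' deviations held 16% of their variance and the second 14.5%. Along the first, all 8 root libraries were negative, from -0.34 to -1.73, and the 6 libraries of stages 4 and M were positive, from 0.98 to 1.65. Wild leaf stage 1 replicate 1 was negative too, at -0.32. The roots are hydroponic, while stages 4 and M are field leaves and the shallowest libraries. Organ, growth setting and depth therefore cannot be told apart in this contrast. Hydroponic mature leaves did not lie with the late wild leaves: they had 0.38, -0.19 and -1.41 at 1, 10 and 50 uM Pi. Along the second component the cluster roots ran from -1.15 at day 0 to 2.33 at day 12, with 0.08, 0.26 and 1.29 at days 1, 4 and 7.

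Between cluster root days 12 and 0, which are 1 library each and were not tested, 13 steady genes were over 1.5-fold higher at day 12 and 16 over 1.5-fold lower, together 19.3%, against 63.3% of the other genes. Between cluster root and white root means, 0 of the 150 passed 1.5-fold, against 12% of the other genes. Hydroponic mature leaves against stage M gave 5.33% of the steady genes and 50.4% of the other genes past 1.5-fold. These shares rest on libraries that the choice used and describe it only.

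In a test of summed counts over the 5 wild leaf groups (edgeR's quasi-likelihood F test, Benjamini-Hochberg adjusted p under 0.05), 44 of the 150 steady genes were called, 29.3%, beside 68.5% of all 16668 genes tested and 81.8% of the other genes past the level filter. The rule used these libraries, so nothing is read from the count. Stage means of the 44 genes spanned 0.29 to 0.70 log2 units. The highest stage mean was that of stage 1 in 18 of them, of stage 2 in 6, of stage 3 in 9, of stage 4 in 2, and of stage M in 9. The count was 27, 29 and 25 without stage 1 replicate 1, 2 and 3 in turn. Over all genes tested these fits called 10960, 10819 and 10844, against 11411 in the main fit.

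The rule was also applied to part of the libraries, and the SD was then measured in the libraries left out, as a description. The level filter was applied in the choosing libraries alone, where 5778 genes (hydroponic) and 4787 genes (wild leaf) passed it. Levels in the other libraries were thus not filtered. When the rule was applied to the 11 hydroponic libraries alone, the 150 genes it gave had a median SD of 0.263 in the 15 wild leaf libraries, against 0.496 in the other eligible genes, and 134 of them (89.3%) lay below the other genes' median. When it was applied to the 15 wild leaf libraries alone, its 150 genes had a median SD of 0.303 in the 11 hydroponic libraries, against 0.659, and 130 (86.7%) lay below the other genes' median. TMM factors were computed separately within each set of libraries. The 2 selections kept 50 and 51 of the 150 genes chosen over all libraries, so most of their genes are not among the steady genes described here. Genes picked in one set of libraries were thus mostly steadier than the rest in the other set, while the names among the 150 depended on the libraries used.

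The 150 genes came from 150 different assembly components, and 20 of them (13.3%) had another gene in their component, against 20.7% of the other genes. They comprised 537 transcripts, with a median of 3 and up to 10 isoforms a gene. A single isoform was listed for 20 steady genes (13.3%), against 24.1% of the other genes. Isoforms of a gene share sequence, so the deposited division of reads among them is an estimate, and its error was not available.

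The choice took genes with the lowest SD of the sum, which in itself places the SD of an isoform above that of the sum and favours isoforms that trade off, so the values of this paragraph are a description. Over the 130 steady genes with at least 2 isoforms, the median SD of the level of the leading isoform was 0.287, while that of the summed level was 0.221. In the other genes these medians were 0.689 and 0.589. The leading isoform had a higher SD than the sum in 120 of the 130 steady genes (92.3%), against 72.6% of the other genes, and more than 2 times the SD of the sum in 28 (21.5%), against 5.74%. Levels of the first and second isoform were negatively correlated over the 26 libraries in 92 of the 130 (70.8%), with a median Pearson r of -0.20, against 29.8% and a median of 0.29 in the other genes.

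Leading isoforms kept their place in many of these genes. The same isoform was the most abundant in all 26 libraries in 65 of the 130 steady genes (50.0%), against 43.3% of the other genes. Over all 130, the mean share of the leading isoform, the one with the highest mean share, had a median of 62.7% in the steady genes and 65.2% in the other genes. The share of the leading isoform ranged over a median of 31.2 percentage points between libraries in the steady genes, against 40.6 points. In 58 of the 130 (44.6%) the leading isoform held over 50% in every library, against 36.8% of the other genes. The choice by the sum bears on these shares too, so they are a description.

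Isoform usage, the division of a gene's counts among its isoforms, was tested with edgeR's quasi-likelihood fit and diffSpliceDGE (adjusted p under 0.05 over all genes tested). The rule did not use the division itself. An isoform that changes without an opposite change in another moves the sum too, so the choice bears on usage. Shares of steady and other genes called are therefore set side by side as a description only. In the wild leaves 128 of the 150 could be tested, since 20 have 1 isoform and 2 more had only 1 past the low count filter. Between stages 4 and 1, usage changed in 14 of the 128 steady genes (10.9%), beside 16% of all 7477 genes tested and 23.9% of the other genes past the level filter. Usage changed in 1 steady gene between stages 2 and 1 (0.781%, beside 0.682% of all genes) and in 1 between stages 3 and 2 (0.781%, beside 0.883%). It changed in 5 between stages 4 and 3 (3.91%, beside 6.27%) and in 13 between stages M and 4 (10.2%, beside 5.82%). Among the other genes past the level filter these 4 steps gave 0.993, 1.27, 9.46 and 9.09%.

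Between stages 4 and 1 the share called was below that of the other genes past the level filter, and in that comparison it was also below it with the replicate number as a block, at 11.7% against 27.3%; differences in share were not tested. The count between stages 4 and 1 was 7 without stage 1 replicate 2. With the replicate number as a block the count was 2 between stages 2 and 1 (1.56%, beside 0.976% of all genes and 1.40% of the other genes past the level filter). Between stages 4 and 3 the blocked count was 12 (9.38%, beside 7.42 and 11.9%), so the steady genes then lay above all genes tested, where without the block they lay below. For stages M and 4 the blocked count was 11 (8.59%, beside 5.96 and 10%). There the steady genes lay below the other genes past the level filter, where without the block they lay above. Between stages M and 4 the count was 1 of 98 steady genes when only the libraries of those stages entered the fit. With limma it was 1 of 128. Over all genes tested the count was 37 in each of these 2 fits, against 435 in the main fit. Without stage 2 replicate 1, stage 2 replicate 2 or stage M replicate 2 the steady count was 8, beside 327, 340 and 342 of all genes. Between stages 4 and 3 the steady count was 3 without stage 3 replicate 1, 12 without stage 4 replicate 1 and 11 without stage 4 replicate 3. With stage M replicate 2 left out it was 8. Over all genes tested these settings gave 306, 547, 427 and 442, against 469 in the main fit. Stages 4 and M were also the shallowest, with 1517487 to 4054878 counts a library; the part of depth in these counts was not tested.

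**Figure D4:**
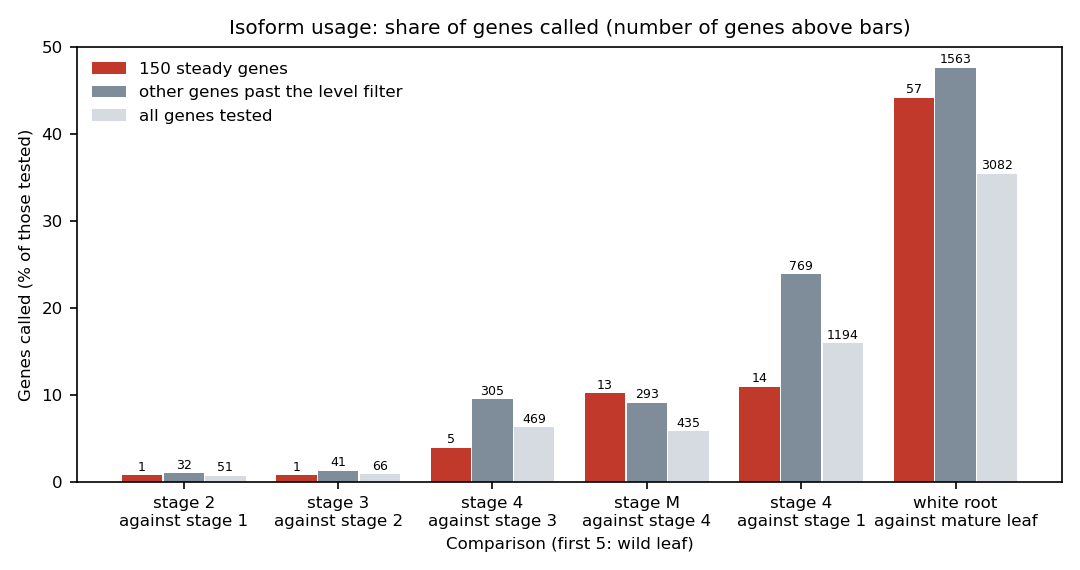
Bars give the percentage of tested genes whose isoform usage changed (adjusted p under 0.05) in each comparison, for the steady genes, the other genes past the level filter and all genes tested, with the number of genes called above each bar. In these fits without a replicate block, the steady genes lie below the other genes past the level filter except for stage M against stage 4, at 10.2% against 9.09%. With the replicate block this order reverses for stage M against stage 4, at 8.59% against 10%. It also reverses for stage 2 against stage 1, at 1.56% against 1.40%. Stage 2 against 1 and stage 3 against 2 each rest on 1 steady gene called.

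Between stages 4 and 1 the largest change in any isoform's mean share had a median of 6.87 percentage points over the 128 steady genes, against 9.16 points in the other genes, and 6 of the 14 called genes (42.9%) exceeded 20 points, against 60.5% of the called other genes and 66.7% of all called genes. The most abundant isoform differed between the stages in 16 of the 128 (12.5%), 5 of them among the called genes, against 17.4% of the other genes. Described next are the called transcripts whose shares did not overlap between the stages, those with the largest rise and fall.

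TRINITY_DN449_c0_g1_i6, from a gene with 7 isoforms, held 10.6, 43.0 and 52.8% of its gene's counts at stage 4, against 0% in all 3 stage 1 replicates (transcript adjusted p = 9.09e-07 and gene adjusted p = 1.77e-06, edgeR diffSpliceDGE). At stage 1 it had 0 of 2408 counts, which allows a share of up to 0.125%. The transcript was also high in stage M and in hydroponic mature leaves: stage M replicates had 62.2, 47.2 and 33.1%, and hydroponic mature leaves 58.5, 56.1 and 45.8%, while the 8 root libraries had 0 to 9.17%. At stages 2 and 3 it held 0.61 to 4.73% and 8.15 to 24.1%. After TMM scaling the summed level of the gene averaged 112 CPM at stage 4 and 108 CPM at stage 1. The gene was chosen for a near-constant scaled sum, so nothing is read from that likeness.

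TRINITY_DN3665_c0_g1_i3 also rose in late leaves but was present in roots too. Its share was 20.03% ± 1.46 at stage 4 and 1.74% ± 0.66 at stage 1 (SD, n = 3 each; transcript adjusted p = 0.000181, gene adjusted p = 0.00082, edgeR diffSpliceDGE). Stage 2 had 0.56 to 2.01%, stage 3 had 3.71 to 7.38% and stage M had 30.4 to 36.4%. It held 16.2 to 24.2% in 6 of the 8 root libraries and 7.97 and 6.83% in the white roots at 10 and 50 uM Pi. Over the wild leaves the gene's sum stayed between 100.4 and 173.3 CPM.

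TRINITY_DN12984_c1_g1_i1 had the largest fall among the named transcripts of this comparison. It held 28.0, 0 and 0.61% of its gene at stage 4, against 80.1, 83.2 and 82.7% at stage 1 (transcript adjusted p = 0.00393, gene adjusted p = 0.000492, edgeR diffSpliceDGE). The fall was not carried into stage M, where it held 97.7, 96.5 and 97.9%. At stage 4 the isoform TRINITY_DN12984_c1_g1_i4 held 65.2, 90.2 and 83.9%, and in hydroponic mature leaves at 1, 10 and 50 uM Pi it held 99.9, 66.7 and 99.9%, with 0% in all stage M replicates. Roots kept the first isoform at 70.1 to 92.7%. At stage 4 these shares rest on 44 to 80 counts of the gene per library.

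TRINITY_DN15660_c0_g1_i33 held 0% in all 3 stage 4 replicates, against 5.56, 25.2 and 51.3% at stage 1, with 0 of 199 counts at stage 4, which allows up to 1.51% (transcript adjusted p = 0.0334, gene adjusted p = 0.00234, edgeR diffSpliceDGE). The call of this transcript was lost most often of the 4 described for these stages: the transcript's adjusted p ran from 0.0128 to 0.137 over 21 alternatives and missed the threshold in 8 of them, with limma and without stage 1 replicate 2 or 3, stage 2 replicate 1 or 2, or any stage 4 replicate. Stage M had 39.1, 0 and 0%, so its replicates differed among themselves. Intervals and limits of this kind cover counting error only.

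**Figure D5:**
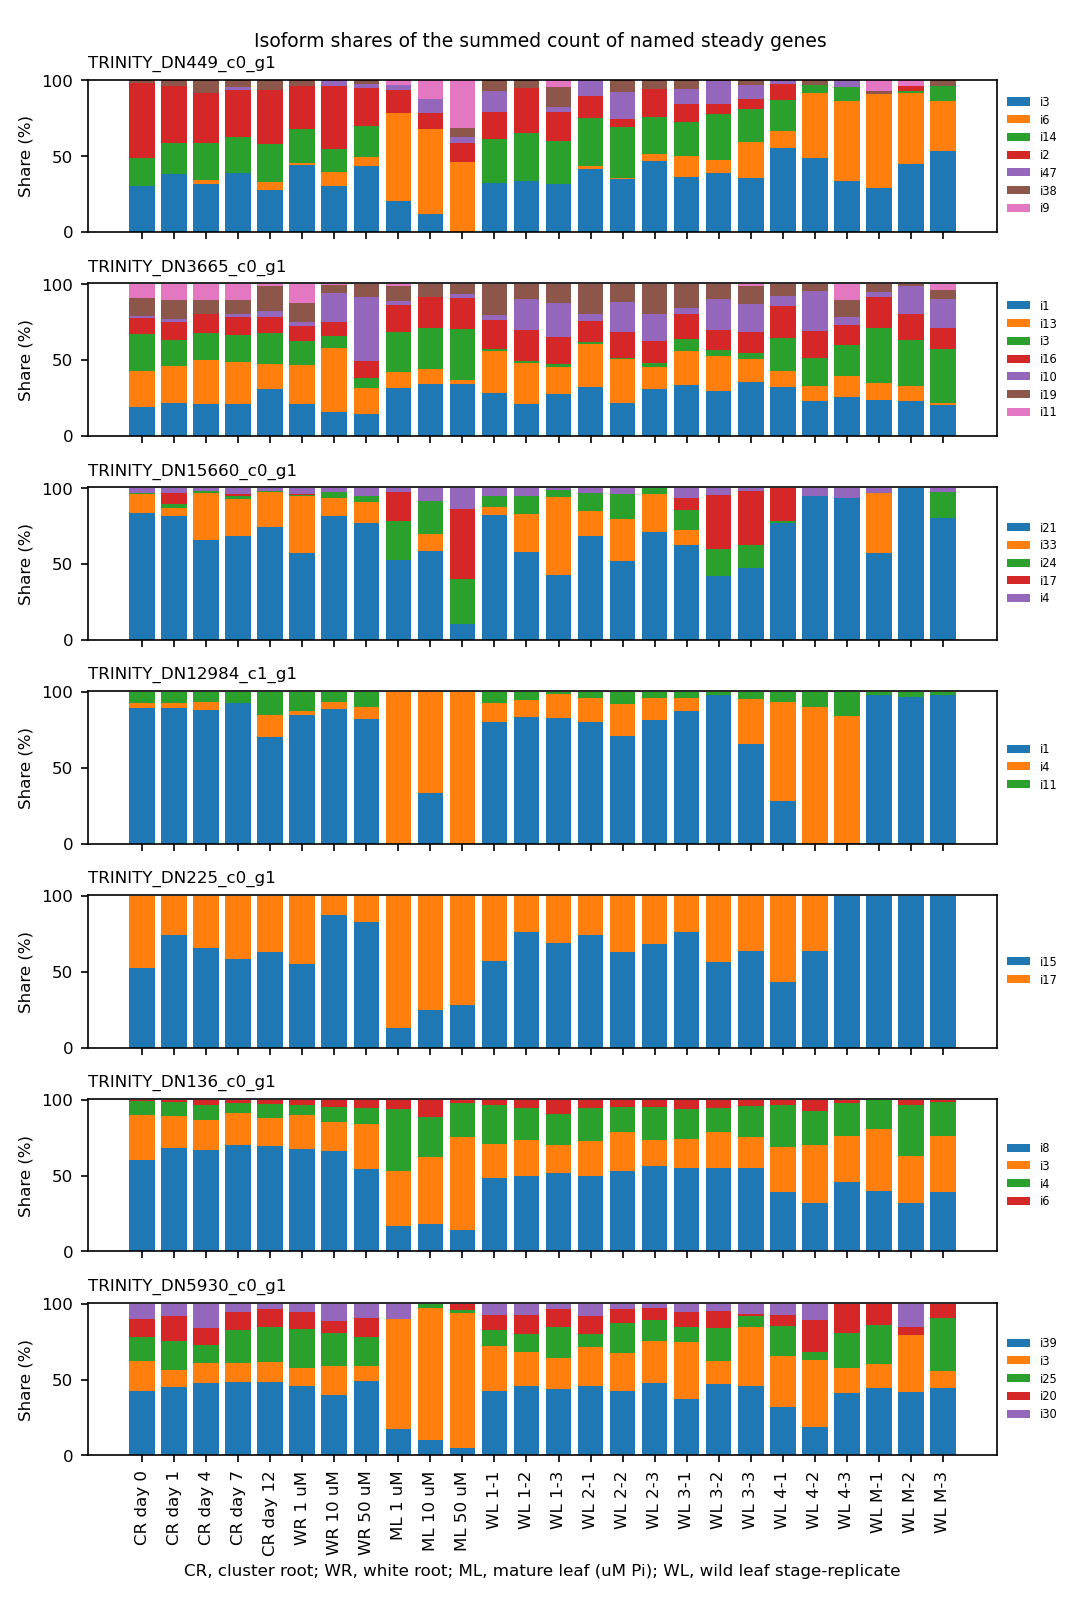
Each panel is a named steady gene, and each stacked bar a library, divided by the percentage of the gene's counts held by each isoform (colours, listed beside the panel). TRINITY_DN449_c0_g1_i6 holds 0 to 9.17% in roots and 33.1 to 62.2% in stage M and hydroponic mature leaves, and TRINITY_DN12984_c1_g1_i1 drops at stage 4 and in hydroponic mature leaves.

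Between white root and mature leaf in hydroponics, with the 3 Pi supplies standing in for replicates and log10 Pi as a term, usage changed in 57 of the 129 steady genes tested (44.2%), beside 35.4% of all 8702 genes tested and 47.6% of the other genes past the level filter. The count was 35 without the white root at 10 uM Pi and 33 without that at 50 uM Pi. Both are counts of steady genes alone and are not read against other genes. Largest share changes had a median of 13.1 percentage points in the steady genes and 16.3 points in the other genes, and 26 of the 57 called genes (45.6%) exceeded 20 points, against 63.6% of the called other genes and 68.8% of all called genes. In 27 of the 129 (20.9%) the most abundant isoform differed between the tissues, 17 of them among the called genes, against 26.8% of the other genes. No other comparison run here called as many steady genes. These libraries were also deeper than the wild leaf libraries in most cases, at 9486439 to 20283815 counts, and the part of depth was not tested.

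TRINITY_DN136_c0_g1_i8, from a gene with 4 isoforms, held 67.4, 66.5 and 54.6% in white roots at 1, 10 and 50 uM Pi, against 17.1, 18.0 and 14.2% in mature leaves (transcript adjusted p = 0.00221, gene adjusted p = 0.000392, edgeR diffSpliceDGE). The call held in all 12 alternatives run. Cluster roots had 60.7 to 70.5%, and wild leaves had 48.4 to 56.7% at stages 1 to 3 and 31.6 to 45.6% at stages 4 and M. Stages 4 and M thus lay between root and hydroponic leaf, while stages 2 and 3 overlapped the white root at 50 uM Pi. The gene's sum was 87.9 to 104.1 CPM in white roots and 70.1 to 85.5 CPM in mature leaves.

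TRINITY_DN5930_c0_g1_i3 held 11.5, 19.5 and 9.97% in white roots, against 72.9, 87.5 and 88.9% in mature leaves (transcript adjusted p = 0.0272, gene adjusted p = 0.00411, edgeR diffSpliceDGE). Its call was lost in 4 of 12 alternatives, with Pi as a 3-level block and without the white root at 10 or 50 uM Pi or the mature leaf at 10 uM Pi, where the adjusted p reached 0.121; the lowest over the alternatives was 4.67e-05. Wild leaves did not match hydroponic leaves here: no wild leaf library exceeded 44.3%, and stage M had 15.7, 37.3 and 10.97%.

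TRINITY_DN225_c0_g1 has 2 isoforms, so 1 gains what the other gives up. TRINITY_DN225_c0_g1_i15 held 55.3, 87.2 and 82.6% in white roots, against 12.9, 24.8 and 27.9% in mature leaves (transcript adjusted p = 0.0243, gene adjusted p = 0.00141, edgeR diffSpliceDGE). TRINITY_DN225_c0_g1_i17 held the rest, with a transcript adjusted p of 0.0164. The calls of the first and second isoform were lost in 6 and 5 of 12 alternatives, with adjusted p from 0.00118 to 0.183 and 0.186: without the white root at 10 or 50 uM Pi or any mature leaf library, and for the first also with Pi as a block. In stage M the first held 100% in all 3 replicates, so stage M and hydroponic mature leaves stood at opposite ends. Stage M libraries are from field leaves and held 2644973 to 4054878 counts, against 17130939 to 20283815 in the mature leaves. The parts of growth setting and depth were not tested. The gene's sum averaged 30.0 CPM in white roots and 51.4 CPM in mature leaves, and it ranks 141 of the 150.

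In the cluster roots, where each day is 1 library and no test was run, the largest change in an isoform's share between days 12 and 0 had a median of 8.77 percentage points in the steady genes and 9.60 points in the other genes. It exceeded 20 points in 11 of the 130 (8.46%), against 21.1% of the other genes. Usage was called both between stages 4 and 1 and between white root and mature leaf in 7 steady genes, which is 50.0% of those called in the first and 12.3% of those called in the second. Over all genes tested in both the overlap was 643, or 55.3% and 24.3%. Of the 127 steady genes tested in both fits, 27 (21.3%) were called in at least 1 wild leaf comparison, beside 21.2% of all genes tested in both and 30.3% of the other genes past the level filter. In at least 1 comparison of either kind 70 (55.1%) were called, beside 47.5 and 59.8%, and 57 (44.9%) were called in none, beside 52.5 and 40.2%.

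Isoform usage was also compared between replicate numbers of the wild leaves, in a comparison chosen after seeing the data, with stage as the other term (edgeR diffSpliceDGE, adjusted p under 0.05). Of 128 steady genes, 6 were called between replicates 2 and 1, 7 between 3 and 1, and 6 between 3 and 2, which is 4.69, 5.47 and 4.69%, beside 4.72, 6.57 and 4.91% of all genes tested and 5.21, 7.57 and 5.80% of the other genes past the level filter. These shares are near the background, so the counts show nothing about the steady genes as a group.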

How the data were processed

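Per the labels' protocols, libraries were made from total RNA with a stranded kit that removes plant ribosomal RNA. The authors deposited estimated counts per assembled transcript (51697 transcripts in 25047 genes, 26 libraries). Tools listed in the submitters' processing notes are kallisto (version not listed), Trim Galore 0.6.6 and DESeq2 1.30.1, without their roles; which assembly was used is not given in the sources used here. After rounding, 2 white root libraries (1 and 10 uM Pi) share a total of 11508234; both were used.

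The members and tests were chosen with earlier results of these data known. Transcripts were summed per gene, TMM factors computed on the sums, and levels written as log2(CPM + 1). For tests, estimated counts were rounded, filtered with filterByExpr (minimum count 10, minimum total 15), TMM scaled and fitted with edgeR 4.0.16 in R 4.3.3, using the robust quasi-likelihood fit and diffSpliceDGE. Wild leaves were fitted over 15 libraries by stage (10 residual degrees of freedom), and white roots and mature leaves over 6 libraries by tissue and log10 Pi (3 residual degrees of freedom). P-values were adjusted by Benjamini-Hochberg over all genes or transcripts tested. The steps were also run on simulated counts drawn independently for each transcript. Such counts hold neither the error of dividing reads among isoforms nor the likeness of same-numbered replicates, so neither was tested. Alternatives used limma 3.58.1, DESeq2 1.42.0, other scalings, filters, blocks and left-out libraries.

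Named were the 3 genes with the lowest SD, those on either side of the limit, the gene with the highest mean, and, for stage 4 against 1 and white root against mature leaf, the 2 largest rises and 2 largest falls in share among called transcripts with no overlap. Wild leaf libraries with the same replicate number resembled each other across stages. After removal of stage means, same-numbered libraries of different stages correlated at 0.158 to 0.588 over 30 pairs, and other pairs at -0.424 to -0.032. Removing the mean ties the replicates of a stage together, so positive values in same-numbered pairs bring negative values in other pairs. Closest to their own number were 15 of 15 libraries. The main fits used stage alone, so their p-values do not take this likeness into account. The replicate number entered as a block only in an alternative. Replicates are leaves of separate field plants per the labels' protocols. Pi supplies have 1 library each, so p-values of white root against mature leaf measure the spread across supplies left after the log10 Pi term.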

Additional observations from a re-analysis of the deposited data

How the results depend on the processing

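Membership of the 150 depended most on scaling and on the libraries used. Plain CPM kept 0 of the 150, the 11 hydroponic libraries alone 50, the 15 wild leaf libraries alone 51, and TMM factors from transcript counts, an alternative chosen after seeing the data, 90. Leaving out each library in turn kept 119 to 149. DESeq2's size factors, TMM without the top transcripts, a pseudocount of 0.5, no minimum in single libraries, the range in place of the SD, and group means kept 117, 121, 148, 150, 116 and 117. The replicate block moved the counts of steady genes with changed isoform usage to 2 between stages 2 and 1 and to 12 between stages 4 and 3, and changed no other count by over 1.5 times. With limma the count was 4 between stages 3 and 2 and 1 between stages M and 4, beside 211 and 37 of all genes. In the main fits all genes gave 66 between stages 3 and 2, 469 between stages 4 and 3 and 435 between stages M and 4. With no low count filter the steady count was 3 between stages 4 and 3 and 8 between stages M and 4, beside 360 and 298 of all genes. It was 27 for summed counts over the 5 groups. A minimum count of 50 gave 0 between stages 3 and 2 (edgeR, 4 at an unadjusted p under 0.05) and 9 between stages 4 and 3. All genes gave 73 and 461 there. Fits of the 2 stages alone gave 3 between stages 3 and 2, 1 between stages 4 and 3 and 1 between stages M and 4. All genes gave 145, 205 and 37 in these fits. Leaving out each wild leaf library in turn gave 7 to 18 between stages 4 and 1, 0 to 2 between stages 2 and 1, 0 to 2 between stages 3 and 2, 3 to 12 between stages 4 and 3, 8 to 14 between stages M and 4, and 25 to 47 for summed counts; edgeR's unadjusted p was under 0.05 in 5 and 9 steady genes in the first and second of the small steps. White root against mature leaf gave 33 to 57. Between replicate numbers, limma gave 13 and 12 where edgeR gave 7 and 6, beside 11.5 and 10.5% of all genes with limma. The other alternatives run on these counts, apart from single left-out libraries, stayed within 1.5 times, and the cause of each change was not tested. Stage 4 and M libraries limit the isoform shares, with a median of 75 to 132.5 counts per steady gene.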

Other observations

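Between replicate numbers of the wild leaves, the lowest transcript adjusted p among the steady genes was that of TRINITY_DN3665_c0_g1_i10, named here after its values were seen. Over stages 1, 2, 3, 4 and M it held 20.8, 19.6, 20.4, 26.6 and 18.5% of its gene in replicate 2 and 22.1, 17.8, 18.7, 4.96 and 19.2% in replicate 3, against 2.95, 4.42, 3.96, 6.86 and 3.23% in replicate 1. The transcript adjusted p was 3.42e-08 for replicate 2 against 1 and 6.84e-07 for replicate 3 against 1 (edgeR diffSpliceDGE). Replicate 2 was above replicate 1 at 5 of 5 stages, and replicate 3 at 4 of 5. TRINITY_DN7505_c0_g1_i21, also chosen after its values were seen, was above replicate 1 at 5 of 5 stages in both other replicates, with mean shares of 12.5% in replicate 2 and 21.5% in replicate 3, against 2.06% in replicate 1. The labels do not say what a replicate number marks beyond a sample of a stage.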
